A study of Mus musculus with 75 samples.

Results

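A set of 8 lipid synthesis genes, out of 55536 genes in the count table, were followed in the lungs of control and bleomycin-treated mice. They were found by their symbols, and all 8 passed the filter on low counts. *Fasn* encodes fatty acid synthase, *Scd1* a stearoyl-CoA desaturase, *Acaca* acetyl-CoA carboxylase alpha and *Srebf1* the transcription factor SREBP-1. *Hmgcs1*, *Sqle*, *Idi1* and *Lss* encode enzymes of the cholesterol pathway, namely HMG-CoA synthase, squalene epoxidase, isopentenyl diphosphate isomerase and lanosterol synthase. RNA came from 1 lobe of the right lung, the inferior lobe, of 75 male C57BL/6JRj mice, with 1 library per mouse. BLEO-IPF mice had been given bleomycin (BLEO), a DNA-cleaving cancer drug used to provoke lung fibrosis, once into the trachea. They were kept in the study only when they had lost 5 to 17% of their body weight by day 6, and they were killed on day 7 (10 mice), day 14, 21, 28 or 35 (12 mice each) or day 42 (7 mice). The stated age of 12 to 14 weeks was that at bleomycin, so BLEO-IPF mice killed on later days were older. The 10 CTRL mice were labelled as given saline, while the study's methods call them untreated and do not give their age when killed. No group carried a transgene or a second agent, and every lung had been lavaged before the lobe was taken, so that cells free in the airspaces were depleted to an unknown extent.

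Cells make fatty acids from acetyl-CoA. Acetyl-CoA carboxylase makes malonyl-CoA, fatty acid synthase builds palmitate from it, and elongases and desaturases turn palmitate into longer and monounsaturated fatty acids. Cholesterol also starts from acetyl-CoA and passes through mevalonate, isoprenoid units, squalene and lanosterol. Transcription of both pathways is driven by the SREBP factors, which are released from the endoplasmic reticulum when sterols are low. Alveolar type 2 (AT2) cells make much of the lung's fatty acid for the phospholipids of surfactant, and macrophages take up and export its lipids. Because whole lobes were sequenced, fewer cells of a type and less RNA per cell cannot be told apart.

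Total counts per library ranged from 9240291 to 14665247. Values are given as CPM, the reads of a gene scaled to a fixed library size, after TMM scaling, which evens out differences in library composition. Differences between groups are the log2FC of edgeR's quasi-likelihood fit over all 75 mice with its standard error (SE), and each adjusted p is its p after Benjamini-Hochberg correction across 16221 genes that passed the filter. The defining markers of AT2 cells were abundant in every library, with a summed level of 6540 to 31709.5 CPM over 8 genes. By fat markers, 3 libraries were above a limit of 46.2 CPM, 5 times the median of all mice, and were called adipocyte-high. The summed CPM of 7 white adipocyte genes was 1775 in BLEO-IPF day 28 mouse 10, 786 in day 7 mouse 8 and 55.6 in CTRL mouse 9, against 44.8 CPM or less in all other mice, with a median of 27.5 CPM in CTRL and 14.1 CPM on day 7. The first 2 stood far above all others, whereas CTRL mouse 9 was only slightly above the next mouse. Results that rest on these libraries are given with and without them. Bleomycin days other than 7 and 28 held none of the 3. For those days, leaving them out removed only CTRL mouse 9 from the groups compared with CTRL.

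In CTRL mice, the 8 genes spanned a wide range of expression. Levels of different genes were set side by side only as CPM per kilobase of exon. *Scd1* came first with 257 ± 69.2 CPM per kb (mean ± SD, n = 10), followed by *Fasn* with 42.4 ± 6.73, *Hmgcs1* with 26.4 ± 2.56 and *Srebf1* with 23.3 ± 2.17 CPM per kb. *Sqle* had 9.09 ± 1.105, *Lss* 3.75 ± 0.333, *Acaca* 2.64 ± 0.330 and *Idi1* 2.06 ± 0.472 CPM per kb. The ranges over mice overlapped between *Fasn* and *Hmgcs1*, between *Hmgcs1* and *Srebf1* and between *Acaca* and *Idi1*, so those neighbours were not separated beyond their spread. In BLEO-IPF mice this order of the means was kept on every day except day 7, when *Idi1* with 3.40 ± 0.830 CPM per kb stood above *Acaca* with 2.62 ± 0.347 CPM per kb (n = 10).

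The first question was which members changed against CTRL and when. On day 7, 5 of the 8 genes were higher (*Scd1*, *Hmgcs1*, *Sqle*, *Idi1* and *Lss*) and 1 was lower (*Srebf1*), where 24.8% of all tested genes were higher and 21% lower. On day 14, *Scd1* and *Hmgcs1* were higher, 2 of 8, where 32.4% of all genes were higher and 29.9% lower, so the share of members was near the background. On day 21, 4 of 8 were higher (*Fasn*, *Scd1*, *Hmgcs1* and *Sqle*), beside 28.3% of all genes higher and 25.8% lower. On day 28, *Fasn*, *Scd1* and *Hmgcs1* were higher, 3 of 8, beside 24.1% and 19.2%. On day 35, 4 of 8 were higher, the same genes as on day 21, beside 16.9% and 13.1%. On day 42, *Fasn*, *Scd1* and *Hmgcs1* were higher, 3 of 8, beside 13.7% and 11%. Thus *Scd1* and *Hmgcs1* passed the test on all 6 days, *Fasn* from day 21, *Idi1* and *Lss* on day 7 alone and *Acaca* on no day.

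**Figure D1:**
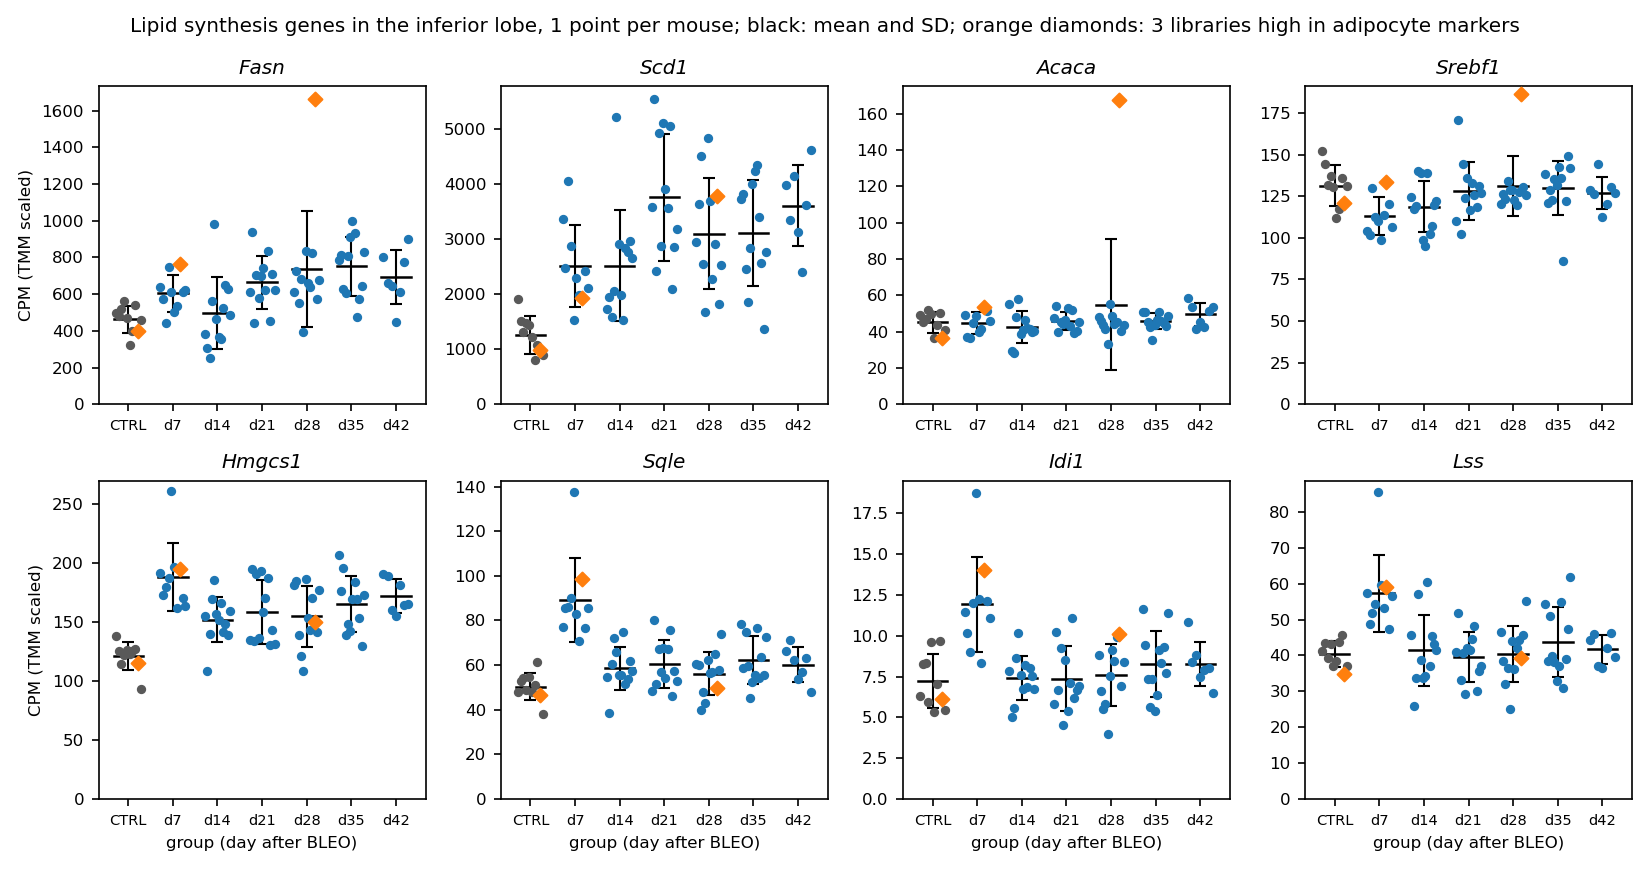
Expression of the 8 genes in CPM (TMM scaled, linear axis from 0) by group, with 1 point per mouse, the mean and SD in black and the 3 libraries high in adipocyte markers as orange diamonds. All 10 mice of day 7 lie above all CTRL mice for *Hmgcs1*, *Sqle* and *Lss*, and all mice of days 21 and 42 for *Scd1*.

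Among the cholesterol genes, *Hmgcs1*, which joins acetyl-CoA and acetoacetyl-CoA to HMG-CoA, was raised throughout. In CTRL mice it ranged from 93.4 to 138 CPM with a median of 124 CPM. On day 7, the lowest mouse had 162 CPM, the median was 183 CPM and the highest mouse had 261 CPM, so that the groups did not overlap. The log2FC was 0.63 (SE 0.09, adjusted p = 3.70e-08), a 1.55-fold increase. From day 14 to day 35, the log2FC lay between 0.33 and 0.45, with 11, 7, 10 and 11 of 12 mice above the highest CTRL mouse. On day 42, the 7 mice had 155 to 191 CPM with a median of 165 CPM, again all above CTRL, and the log2FC was 0.51 (SE 0.10, adjusted p = 8.05e-05).

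*Sqle* makes squalene epoxide, the first oxygenated sterol precursor. It ranged from 38.3 to 61.6 CPM in CTRL mice, with a median of 50.1 CPM. On day 7, it ranged from 70.9 to 138 CPM with a median of 85.6 CPM, without overlap, and the log2FC of 0.82 (SE 0.11, adjusted p = 3.02e-09) was the largest of the 4 cholesterol members. On day 14, the range of 38.5 to 74.9 CPM overlapped with CTRL, and the log2FC of 0.22 (SE 0.10) missed the threshold (adjusted p = 0.06). Days 21 and 35 passed with log2FC of 0.26 and 0.31 (adjusted p = 0.0254 and 0.0168), whereas days 28 and 42, with 0.16 and 0.26, did not (adjusted p = 0.219 and 0.0975). The call on day 21 was lost without the 3 adipocyte-high libraries (adjusted p = 0.052) and without the filter on low counts (adjusted p = 0.0515).

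*Lss*, which closes squalene epoxide to lanosterol, had 34.9 to 45.7 CPM in CTRL mice with a median of 40.3 CPM. All 10 mice of day 7 were above that range, at 47.4 to 85.6 CPM with a median of 55.4 CPM, for a log2FC of 0.51 (SE 0.12, adjusted p = 0.000275). From day 14 on, the log2FC lay between -0.03 and 0.12, and the 95% intervals of the 5 days together spanned -0.25 to 0.34. On day 14, 3 mice were above and 4 below all CTRL mice.

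*Idi1* interconverts the C5 building blocks of isoprenoids and was the least counted member, with 40 to 87 reads in the lowest mouse of each group. It had 5.33 to 9.65 CPM in CTRL mice, with a median of 6.67 CPM, and 8.35 to 18.7 CPM on day 7, with a median of 11.7 CPM. These ranges overlapped, 8 of 10 mice being above all CTRL mice, and the log2FC was 0.72 (SE 0.15, adjusted p = 4.82e-05). Later log2FC values were 0.03 to 0.20, with intervals that together spanned -0.25 to 0.52. The processed pseudogene *Gm13502* matches *Idi1* transcripts over 684 bases at 100% identity and received 27 reads in all libraries against 6802 for *Idi1*, so reads from that stretch could have been assigned to either.

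One mouse of day 7, mouse 5, was the highest of its day for all 4 cholesterol members. Without it, the log2FC on day 7 was 0.57 for *Hmgcs1*, 0.74 for *Sqle*, 0.63 for *Idi1* and 0.43 for *Lss*, and all 4 remained past the threshold. Across the 8 members, 3 had all day 7 mice above all CTRL mice, which held for 7.39% of all genes. On day 21 this held for *Scd1*, 1 of 8 members, and 6.84% of all genes, and at the last time point for *Scd1* and *Hmgcs1*, 2 of 8, and 4.22% of all genes. It held for no member after 14, 28 and 35 days, when the share of all genes was 9.46%, 2.1% and 2.43%.

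The other 17 enzymes of cholesterol synthesis, all tested, were mostly higher on day 7 as well. On day 7, 14 were higher, 1 was lower and 2 did not pass, with a median log2FC of 0.55 beside -0.00 over all genes. The shares of all genes were 24.8% higher and 21% lower. *Cyp51*, the lanosterol demethylase that acts directly after *Lss*, rose from 41.7 ± 5.51 to 85.2 ± 15.1 CPM (SD, n = 10 each), a log2FC of 1.03 (SE 0.10, adjusted p = 6.36e-13) with all 10 mice above CTRL. *Hsd17b7*, a 3-ketosterol reductase, rose from 17.5 ± 2.97 to 35.3 ± 10.0 CPM (log2FC 1.01, SE 0.15, adjusted p = 1.29e-07), also in 10 of 10 mice. *Lbr*, which encodes the lamin B receptor of the nuclear envelope and carries sterol reductase activity, was the 1 that fell, from 95.6 ± 4.41 to 82.4 ± 7.76 CPM (log2FC -0.21, SE 0.06, adjusted p = 0.00243), with 8 of 10 mice below all CTRL mice. *Ebp* (log2FC 0.17, adjusted p = 0.0956) and *Sc5d* (log2FC 0.16, adjusted p = 0.0979) did not pass.

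After day 7, fewer of these 17 genes were higher, namely 9, 8, 7, 8 and 6 on the 5 later days in order, while *Lbr* was lower on each of them. The shares of all genes that were higher on those days were 32.4%, 28.3%, 24.1%, 16.9% and 13.7%. The median log2FC was 0.18, 0.22, 0.18, 0.25 and 0.28, beside 0.01, 0.01, 0.02, 0.00 and 0.01 over all genes. *Mvd*, *Cyp51* and *Dhcr7*, picked out after their values were seen, were higher on all 6 days. Without the 3 adipocyte-high libraries, the day 7 calls were the same 15 genes, and 7, 6, 7, 5 and 4 genes were higher and 2, 2, 1, 1 and 1 lower on the later days. The calls lost included that of *Dhcr7* on day 14. With only the groups compared in the fit, 12 instead of 7 of these genes passed on day 42.

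**Figure D2:**
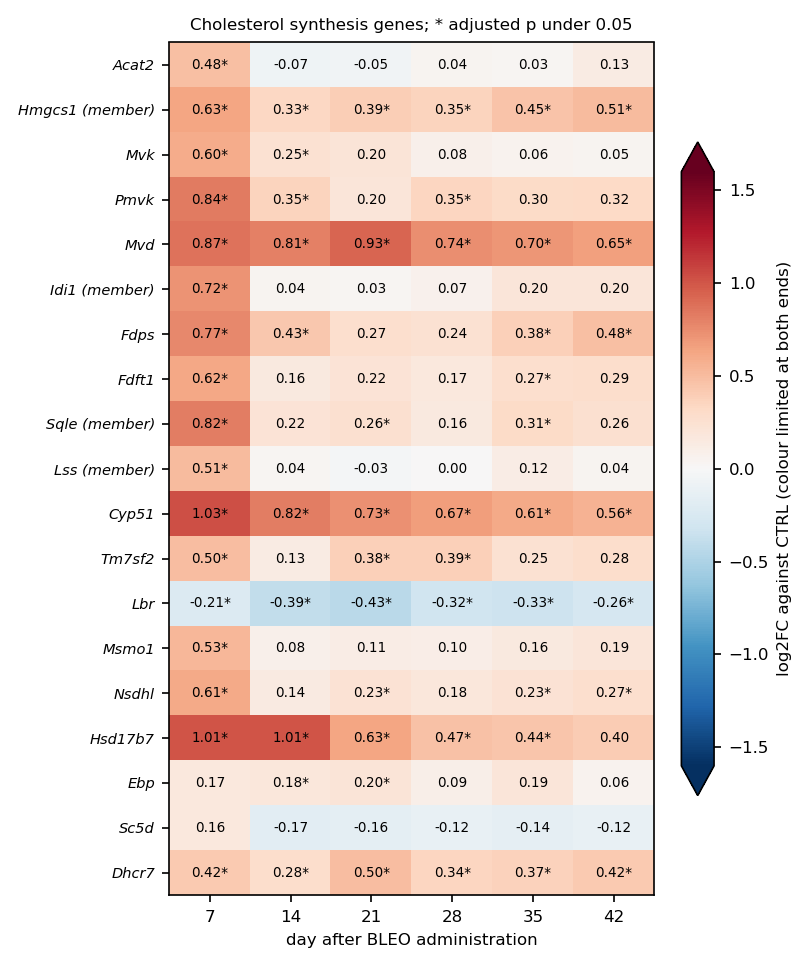
Log2FC against CTRL (colour and printed value) for 19 cholesterol synthesis genes in the order of the pathway, in rows, on the 6 days after BLEO administration, in columns, with an asterisk where the adjusted p was under 0.05. On day 7, 16 of the 19 rows are positive and called, and *Lbr* is the only row that is negative and called.

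Promoter sequences were examined for the letters of factors known to act on these genes. They are shown for the 3 cholesterol members with an entry and for *Fasn*, because these genes are held to be SREBP targets. RefSeq promoter entries on GRCm38.p6 existed for 6 of the 8 members, and *Scd1* and *Sqle* had none. The windows are the 250 bases before the transcription start of the promoter entry, printed on the strand of the gene from 5′ to 3′, at chr13:119690101-119690350 on the plus strand for *Hmgcs1*, chr13:8885356-8885605 on the plus strand for *Idi1*, chr10:76531355-76531604 on the plus strand for *Lss* and chr11:120824548-120824797 on the minus strand for *Fasn*. Capitals mark matches on either strand to TCACNCCA, the core of a sterol regulatory element, and to CCAAT, the box bound by the factor NF-Y.
Hmgcs1: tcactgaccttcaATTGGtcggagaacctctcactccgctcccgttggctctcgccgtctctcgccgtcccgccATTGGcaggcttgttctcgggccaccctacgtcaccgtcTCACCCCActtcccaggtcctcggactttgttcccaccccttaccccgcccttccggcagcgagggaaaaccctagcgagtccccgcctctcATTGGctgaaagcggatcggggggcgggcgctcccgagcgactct
Idi1: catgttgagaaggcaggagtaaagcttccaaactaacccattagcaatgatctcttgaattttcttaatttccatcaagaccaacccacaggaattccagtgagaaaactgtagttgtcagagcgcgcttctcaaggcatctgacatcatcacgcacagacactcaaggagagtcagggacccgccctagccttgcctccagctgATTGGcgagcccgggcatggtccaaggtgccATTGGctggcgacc
Lss: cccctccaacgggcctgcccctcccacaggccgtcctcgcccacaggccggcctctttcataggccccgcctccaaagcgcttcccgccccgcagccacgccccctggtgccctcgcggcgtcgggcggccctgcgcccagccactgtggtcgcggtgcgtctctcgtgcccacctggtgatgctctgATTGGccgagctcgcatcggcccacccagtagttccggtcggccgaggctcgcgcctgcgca
Fasn: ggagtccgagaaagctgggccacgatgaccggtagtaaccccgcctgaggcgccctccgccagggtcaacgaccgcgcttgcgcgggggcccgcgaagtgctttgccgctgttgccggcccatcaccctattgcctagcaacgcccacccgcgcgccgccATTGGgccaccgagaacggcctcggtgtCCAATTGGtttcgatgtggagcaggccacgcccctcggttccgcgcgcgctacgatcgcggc

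*Hmgcs1* held 1 match to TCACNCCA, starting 137 bases before the transcription start, and 3 CCAAT boxes. *Idi1* held 2 CCAAT boxes, *Lss* held 1, and *Fasn* held 3, of which 1 pair overlapped in CCAATTGG. TCACNCCA was found in 3.67% and CCAAT in 33.8% of 32851 promoters of the same length. Counted by gene, in any of its promoters, TCACNCCA was found in 1136 and CCAAT in 10133 of 27025 genes. Of the other 13 cholesterol genes with an entry, 12 held CCAAT and 1, *Msmo1*, held TCACNCCA. CANNTG, the E-box that SREBP-1 can also bind, was in at least 1 window of all 6 members with an entry. It was in 66.2% of all promoters and in 18729 of 27025 genes, and in *Fasn* it overlapped the paired CCAAT boxes. *Srebf1* had several windows, and that at chr11:60220628-60220877 held no CANNTG. The *Acaca* window, at chr11:84195188-84195437, lies inside the annotated gene. The *Idi1* window runs past the annotated gene start at chr13:8885501, and both of its CCAAT boxes lie past that start. The *Lss* window also runs past the annotated gene start, at chr10:76531588, but its CCAAT box lies before it. These are letter matches only, and no binding was measured.

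Among the 4 fatty acid members, *Scd1*, whose enzyme makes oleate and palmitoleate, had the largest log2FC on each day. It ranged from 797 to 1910.3 CPM in CTRL mice with a median of 1266 CPM. On day 7, it ranged from 1534 to 4052 CPM with a median of 2355 CPM, and 9 of 10 mice lay above CTRL (log2FC 0.99, SE 0.20, adjusted p = 3.73e-05). On day 14, it ranged from 1538 to 5206 CPM with a median of 2353 CPM, 9 of 12 mice being above CTRL, for a log2FC of 1.00 (SE 0.19, adjusted p = 8.43e-06). On day 21, all 12 mice were above CTRL, at 2085 to 5540.3 CPM with a median of 3572 CPM, and the log2FC of 1.58 (SE 0.20, adjusted p = 4.54e-10) was a 2.98-fold increase. The log2FC was 1.30 (SE 0.19, adjusted p = 1.89e-07) on day 28 and 1.31 (SE 0.19, adjusted p = 2.82e-07) a week later, when 10 of 12 mice were above CTRL, as they were on day 28. On day 42, the 7 mice had 2408 to 4621 CPM with a median of 3613 CPM, all above CTRL, and the log2FC was 1.52 (SE 0.22, adjusted p = 1.65e-07). Without the 3 adipocyte-high libraries, the log2FC on the 6 days was 0.95 to 1.53 and every call remained.

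*Fasn*, which builds palmitate, passed the test from day 21 on. CTRL mice had 320.3 to 563 CPM with a median of 478 CPM. On day 7, mice had 443 to 765 CPM with a median of 611 CPM, 7 of 10 being above CTRL, and the log2FC of 0.38 (SE 0.17) missed the threshold (adjusted p = 0.0565). That call depended on the setting, since it passed with only the 2 groups compared in the fit (adjusted p = 0.00276), with library size as the only scaling (adjusted p = 0.0438) and without day 14 mouse 5 (adjusted p = 0.0445). On day 14, the range of 254 to 984 CPM spread to both sides of CTRL, with a median of 476 CPM and a log2FC of 0.10 (SE 0.16, adjusted p = 0.613). The top value of day 14 was mouse 5, and without it the log2FC was -0.047 (adjusted p = 0.806).

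From day 21, *Fasn* was above CTRL in most mice. On day 21, mice had 444 to 936 CPM with a median of 662 CPM (log2FC 0.52, SE 0.16, adjusted p = 0.00599). On day 28, they had 392 to 1664 CPM with a median of 669 CPM (log2FC 0.67, SE 0.16, adjusted p = 0.000693). The top value was the adipocyte-high mouse 10, the next mouse had 837 CPM, and without the 3 adipocyte-high libraries the log2FC on day 28 was 0.46 (adjusted p = 0.0123). On day 35, mice had 474 to 998 CPM with a median of 796 CPM (log2FC 0.69, SE 0.16, adjusted p = 0.000673), 11 of 12 above CTRL. On day 42, they had 450.4 to 899 CPM with a median of 660.4 CPM (log2FC 0.58, SE 0.18, adjusted p = 0.0169), 6 of 7 above CTRL.

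*Acaca*, which makes the malonyl-CoA that *Fasn* uses, was not called on any day. CTRL mice had 36.3 to 51.9 CPM with a median of 46.02 CPM, and the medians of the 6 days were 40.9 to 51.6 CPM. The log2FC lay between -0.09 and 0.13 on 5 of the days, with adjusted p of 0.579 to 0.975. On day 28, it was 0.28 (SE 0.14, adjusted p = 0.0992), and this rested on mouse 10, which had 168 CPM where the other 11 mice had 32.9 to 55.4 CPM. Without the 3 adipocyte-high libraries it was -0.060 (SE 0.09, adjusted p = 0.612). With all mice, the 95% intervals of the 6 days reached from -0.36 to 0.56. A processed pseudogene, *Gm5182*, matches *Acaca* over 6118 bases at 99.2% identity and received 244 reads in all libraries against 38341 for *Acaca*, so the division of reads between them is uncertain.

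*Srebf1* ranged from 112 to 152 CPM in CTRL mice, with a median of 131 CPM. On day 7, it was lower, at 98.7 to 133 CPM with a median of 111 CPM, 5 of 10 mice being below all CTRL mice (log2FC -0.22, SE 0.08, adjusted p = 0.0163). On day 14, the log2FC was -0.15 (adjusted p = 0.0768). It passed with library size alone, with upper quartile scaling, without the adipocyte-high libraries and without day 14 mouse 5, with adjusted p of 0.0304 to 0.0328. From day 21 on, the log2FC was -0.05 to -0.00 and the adjusted p 0.708 to 0.977. The counts do not separate the SREBP-1a and SREBP-1c transcripts, and 109 exon bases of *Srebf1* overlap *Rai1* on the opposite strand, whose share cannot be told because the strand setting of the counting is not given in the sources used here.

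The other fatty acid synthesis genes did not follow 1 direction. Of 21 listed, 19 were tested. From the first to the last day, 8, 6, 7, 8, 5 and 3 genes were higher and 1, 9, 4, 3, 3 and 1 lower, with medians of the log2FC of 0.11, -0.14, -0.06, 0.12, -0.01 and 0.07. Of all genes, 24.8%, 32.4%, 28.3%, 24.1%, 16.9% and 13.7% were higher and 21%, 29.9%, 25.8%, 19.2%, 13.1% and 11% lower on these days. Without the 3 adipocyte-high libraries, 7, 6, 7, 5, 5 and 4 genes of the list were higher and 2, 10, 7, 4, 2 and 1 lower. *Acly*, *Fads1* and *Thrsp* were the 3 added as lower on day 21.

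Day 14 had the most calls in this list. *Elovl6*, the elongase that extends palmitate to stearate, rose from 10.3 ± 1.19 to 14.4 ± 2.51 CPM (log2FC 0.49, SE 0.18, adjusted p = 0.0135), with 10 of 12 mice above CTRL. *Hsd17b12*, a reductase of the elongation cycle, rose from 74.6 ± 4.84 to 102 ± 19.1 CPM (log2FC 0.45, SE 0.07, adjusted p = 1.37e-07), with 11 of 12 above. *Acss2*, which makes acetyl-CoA from acetate, fell from 40.9 ± 4.35 to 22.3 ± 4.57 CPM (log2FC -0.87, SE 0.15, adjusted p = 4.36e-07), with all 12 mice below CTRL. *Scd4*, a desaturase with low counts, fell from 1.64 ± 0.314 to 1.02 ± 0.479 CPM (log2FC -0.68, SE 0.23, adjusted p = 0.00774), with 8 of 12 below.

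Some genes, picked out after their values were seen, kept 1 direction for longer. *Me1*, the malic enzyme that supplies NADPH, and *Slc25a1*, the mitochondrial citrate carrier, were higher on all 6 days, with log2FC of 0.38 to 0.66 and of 0.30 to 0.48. *Acly*, which cleaves that citrate to acetyl-CoA, was lower on day 14 (log2FC -0.31, SE 0.08, adjusted p = 0.000395), and with all mice it was called on no other day. Without the 3 adipocyte-high libraries it was also lower on day 21 (log2FC -0.16, adjusted p = 0.0383) and day 28 (log2FC -0.18, adjusted p = 0.0292), when mouse 10 had 460.2 CPM and the other 11 mice 296 CPM or less. *Thrsp*, a regulator of fat synthesis with high levels in adipose tissue, had a log2FC of 2.23 on day 28 (adjusted p = 0.00212), which became -0.56 (adjusted p = 0.0548) without the 3 adipocyte-high libraries. Without them, *Elovl6* and *Hsd17b12* also lost their calls on day 28.

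**Figure D3:**
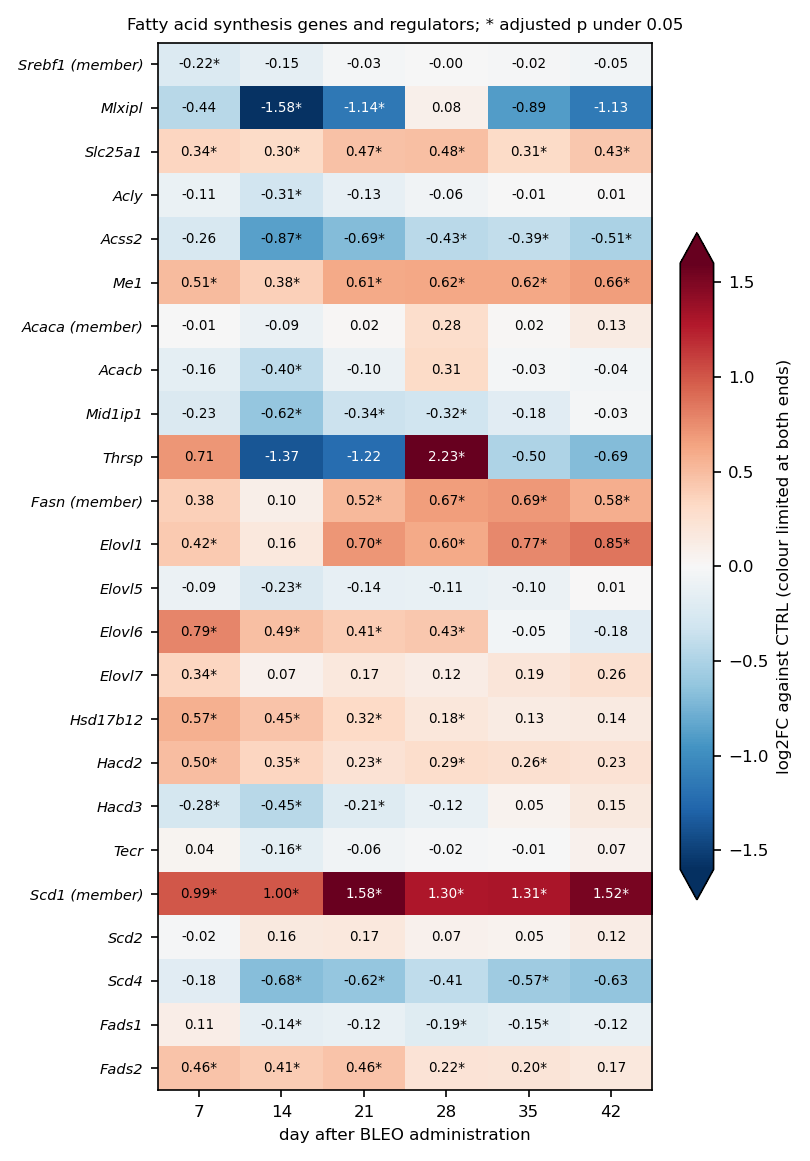
Log2FC against CTRL (colour and printed value) for *Srebf1*, *Mlxipl* and the tested fatty acid synthesis genes, in rows, on the 6 days after BLEO administration, in columns, with an asterisk where the adjusted p was under 0.05. *Scd1*, *Me1* and *Slc25a1* are positive and called in every column, while *Acss2* is negative in every column and called from day 14.

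The genes that control SREBP were described next. Of 12 listed, 11 were tested, and 1, 4, 3 and 1 of them were lower on days 7, 14, 21 and 28. Among all genes, 21%, 29.9%, 25.8% and 19.2% were lower on these days, and 13.7% to 32.4% were higher on the 6 days. A single gene was higher on every day but day 28, with medians of the log2FC of -0.13, -0.07, -0.02, 0.00, -0.01 and 0.04 from the first to the last day. On days 35 and 42, that gene was *Stard4*, a sterol carrier (log2FC 0.24 and 0.30), and with all mice no other of the list was called. With the 3 adipocyte-high libraries left out, 2, 4, 3, 2, 1 and 1 genes were lower on the 6 days, and 1 gene was higher on each of days 7, 35 and 42. On day 14, *Mlxipl*, the carbohydrate-responsive activator ChREBP, fell from 2.87 ± 0.421 to 0.945 ± 0.432 CPM (log2FC -1.58, SE 0.40, adjusted p = 0.000467) in 12 of 12 mice. Its counts were low, at 2 to 20 reads per mouse on day 14. *Mlxipl* was also lower on day 21 (log2FC -1.14, SE 0.39, adjusted p = 0.0106). On day 28, mouse 10 had 20.2 CPM and the other 11 mice 2.35 CPM or less, and the log2FC was 0.08 with all mice and -0.94 (adjusted p = 0.00296) without the 3 adipocyte-high libraries. Without them, *Mlxipl* was lower on all 6 days, with log2FC of -1.58 to -0.89. *Insig1*, which retains SREBP in the endoplasmic reticulum, fell on day 14 from 70.7 ± 7.84 to 55.9 ± 15.2 CPM (log2FC -0.34, SE 0.13, adjusted p = 0.0171). *Srebf2*, the SREBP that acts mainly on cholesterol genes, was lower on days 14, 21 and 28, with log2FC of -0.33, -0.26 and -0.24. *Scap*, the escort of SREBP, was higher on day 14 (log2FC 0.13, SE 0.05, adjusted p = 0.0271), and this call was lost in 5 alternatives, with adjusted p of 0.0577 to 0.0812.

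Genes of sterol export and storage were described in the same way. Of 8 tested, 2, 5, 6, 6, 6 and 5 were higher on the 6 days in order, and 2, 1, 1 and 1 were lower on the first 4 of them, with medians of -0.12, 0.55, 0.70, 0.51, 0.47 and 0.64. The shares of all genes that were higher were 24.8%, 32.4%, 28.3%, 24.1%, 16.9% and 13.7%, and those lower on the first 4 days 21%, 29.9%, 25.8% and 19.2%. The counts of the list were the same without the adipocyte-high libraries. On day 21, *Ch25h*, cholesterol 25-hydroxylase, rose from 5.17 ± 0.776 to 22.2 ± 12.6 CPM (log2FC 2.10, SE 0.34, adjusted p = 5.10e-07). *Apoe*, an apolipoprotein that carries cholesterol out of macrophages, rose from 578 ± 49.2 to 1618 ± 383 CPM (log2FC 1.48, SE 0.22, adjusted p = 7.38e-08), and both genes were above CTRL in all 12 mice. *Cyp27a1*, sterol 27-hydroxylase, fell from 29.1 ± 2.55 to 19.99 ± 4.36 CPM (log2FC -0.54, SE 0.12, adjusted p = 0.00016).

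Of 10 genes for phospholipid and triglyceride synthesis, all tested, 5, 6, 7, 4, 3 and 1 were lower on the 6 days in order and 1, 1, 2 and 2 were higher on the last 4 of them, with medians of -0.25, -0.28, -0.30, -0.13, -0.12 and -0.16. Among all genes, 28.3%, 24.1%, 16.9% and 13.7% were higher on the last 4 days. With the 3 adipocyte-high libraries left out, 6, 6, 6, 6, 4 and 3 were lower, beside 21%, 29.9%, 25.8%, 19.2%, 13.1% and 11% of all genes with all mice. *Dgat2*, an enzyme of triglyceride synthesis, had a log2FC of 0.44 (adjusted p = 0.269) on day 28 with all mice and of -0.79 (adjusted p = 1.76e-05) without them, mouse 10 being at 234 CPM and the other 11 mice at 21.99 CPM or less. On day 21, *Chpt1*, a cholinephosphotransferase, fell from 187 ± 13.6 to 133 ± 32.9 CPM (log2FC -0.50, SE 0.12, adjusted p = 0.000459) and *Dgat2* from 23.4 ± 3.12 to 12.95 ± 3.08 CPM (log2FC -0.85, SE 0.33, adjusted p = 0.0228). *Dgat1* rose on that day from 20.04 ± 1.602 to 23.6 ± 1.82 CPM (log2FC 0.24, SE 0.10, adjusted p = 0.0395), and this call was lost in 4 alternatives, DESeq2 included (adjusted p = 0.0588).

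Of 12 genes of fatty acid oxidation, 11 were tested, and 5, 4, 4, 4, 2 and 2 were higher on the 6 days in order, with medians of 0.13, 0.03, 0.05, 0.11, 0.06 and 0.08. Those lower numbered 3 on day 14 and 1 on days 21, 28 and 42. Among all genes, 24.8%, 32.4%, 28.3%, 24.1%, 16.9% and 13.7% were higher on the 6 days. The shares lower were 21%, 29.9%, 25.8%, 19.2%, 13.1% and 11%. Without the adipocyte-high libraries, 5, 4, 4, 3, 2 and 2 were higher, and those lower numbered 1 on days 7 and 42 and 2 on days 14 and 21. On day 14, *Cpt2* (log2FC 0.33, SE 0.09, adjusted p = 0.000668) and *Slc25a20* (log2FC 0.33, SE 0.07, adjusted p = 1.54e-05), which bring acyl groups into mitochondria, were higher. *Ppara*, a nuclear receptor that drives oxidation, was lower (log2FC -0.60, SE 0.21, adjusted p = 0.0119), as was *Cpt1a* (log2FC -0.24, SE 0.11, adjusted p = 0.0451), whose call was lost in 3 alternatives.

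The days were then compared with each other in the same fit. From day 7 to day 14, all 4 cholesterol members fell, 4 of 8 members, where 17% of all genes changed in either direction. *Hmgcs1* fell by 0.31 (SE 0.09, adjusted p = 0.00852), *Sqle* by 0.60 (SE 0.10, adjusted p = 2.22e-05), *Idi1* by 0.68 (SE 0.14, adjusted p = 0.000428) and *Lss* by 0.47 (SE 0.11, adjusted p = 0.00204) on the log2 scale. Of the other 17 cholesterol genes, 11 fell over the same interval and none rose. *Fasn* changed by -0.28 (SE 0.16, adjusted p = 0.231), which became -0.42 (adjusted p = 0.0448) without day 14 mouse 5, and *Scd1* by 0.01 (SE 0.19, adjusted p = 0.986).

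Between later neighbouring days, no member passed the test of edgeR or of DESeq2. From day 14 to day 21, where 1.03% of all genes passed, *Fasn* (log2FC 0.42, SE 0.15, adjusted p = 0.151) and *Scd1* (log2FC 0.58, SE 0.18, adjusted p = 0.0853) had an unadjusted p under 0.05 in both tools, and both passed without day 14 mouse 5. Among all 16221 genes, 2769 had an unadjusted p under 0.05 in edgeR over that step. The share of all genes that passed was 0.727% from day 21 to 28, 1.27% from day 28 to 35 and 0% from day 35 to 42. Over these later steps, 0 members had an unadjusted p under 0.05 in either tool, beside 1967, 2067 and 957 of all genes in edgeR. For the last of these, edgeR and DESeq2 each called 0 of all genes. From day 14 to day 42, where 34% of all genes changed, *Fasn* rose by 0.48 (SE 0.18, adjusted p = 0.0304) and *Scd1* by 0.52 (SE 0.21, adjusted p = 0.0439). Both calls were lost without a filter on low counts (adjusted p = 0.054 and 0.0824) and with only these groups in the fit (adjusted p = 0.0806 and 0.0534). The comparisons against CTRL share the same 10 CTRL mice, and those between days share a group with their neighbours.

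Cell type markers were listed in the same mice, and whether they moved with these genes was not tested. AT2 markers fell on day 14 in 6 of 8 genes. Their summed level was 22640.5 to 27858 CPM in CTRL mice, with a median of 25026.5 CPM, and 6540 to 24341 CPM on day 14, with a median of 13189 CPM. By day 42, the sum was 24884 to 31118 CPM, with 2 of 8 genes higher. Markers of lipid-associated macrophages rose on every day, in 5 of 7 genes on days 7, 14 and 28, in 7 on day 21 and in 6 on days 35 and 42, and their sum went from 485 to 655 CPM in CTRL mice to 1485 to 7571 CPM on day 21. Alveolar macrophage markers were mixed, with 4 of 7 higher and 3 lower on day 21 and a sum of 243 to 328 CPM in CTRL mice and 174 to 429 CPM on day 21. Of 6 lipofibroblast markers, *Plin2* was higher on all days and 3 to 5 others were lower, and the sum fell from 2956 to 3846 CPM in CTRL mice to 866 to 1963 CPM on day 14. All 7 cell cycle markers were higher from day 7 to day 35, the sum being 36.1 to 72.9 CPM in CTRL mice and 128 to 267 CPM on day 7. Beside these counts of markers, 13.7% to 32.4% of all genes were higher and 11% to 29.9% lower, depending on the day. The part of any of these cell types in the results above was not tested.

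Fat in the dissected lobe was examined because adipocytes express the fatty acid genes strongly. In day 28 mouse 10, *Adipoq* was at 196 CPM and *Plin1* at 174 CPM, and the other 11 mice of that day had 3.33 and 2.42 CPM at most. The same library had the highest value of its group for *Fasn*, *Acaca*, *Srebf1* (186 CPM) and *Idi1* (10.1 CPM), whereas *Scd1* (3780.3 CPM), *Hmgcs1*, *Sqle* and *Lss* lay inside the range of the other mice. In day 7 mouse 8, *Adipoq* was at 66.4 CPM, and *Fasn* (765 CPM), *Acaca* (53.6 CPM) and *Srebf1* (133 CPM) were the highest of that day. CTRL mouse 9, with *Adipoq* at 3.66 CPM, had the lowest *Acaca* and *Lss* of its group. *Ucp1*, a marker of brown fat, was at 0 in day 7 mouse 8 and CTRL mouse 9. It was at 0.902 CPM in day 28 mouse 10, the highest of its day. Of the other brown fat markers listed, *Cox8b* (log2FC 1.30, adjusted p = 0.0182) and *Cox7a1* (log2FC 1.34, adjusted p = 0.00101) were higher on day 28 with all mice. *Cidea* and *Adrb3* were not called on that day. Whether brown fat was present was not tested. Without the 3 libraries, *Acaca* passed the test from day 14 to day 42 (log2FC 0.23, adjusted p = 0.046). Neither of these days held one of the 3 libraries, and with all mice the log2FC was 0.22 (SE 0.16, adjusted p = 0.266). The members called against CTRL without them were the same on days 7, 28, 35 and 42, *Srebf1* was added on day 14 and *Sqle* was lost on day 21. On days 14 and 21, CTRL mouse 9 alone was left out of the groups compared.

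**Figure D4:**
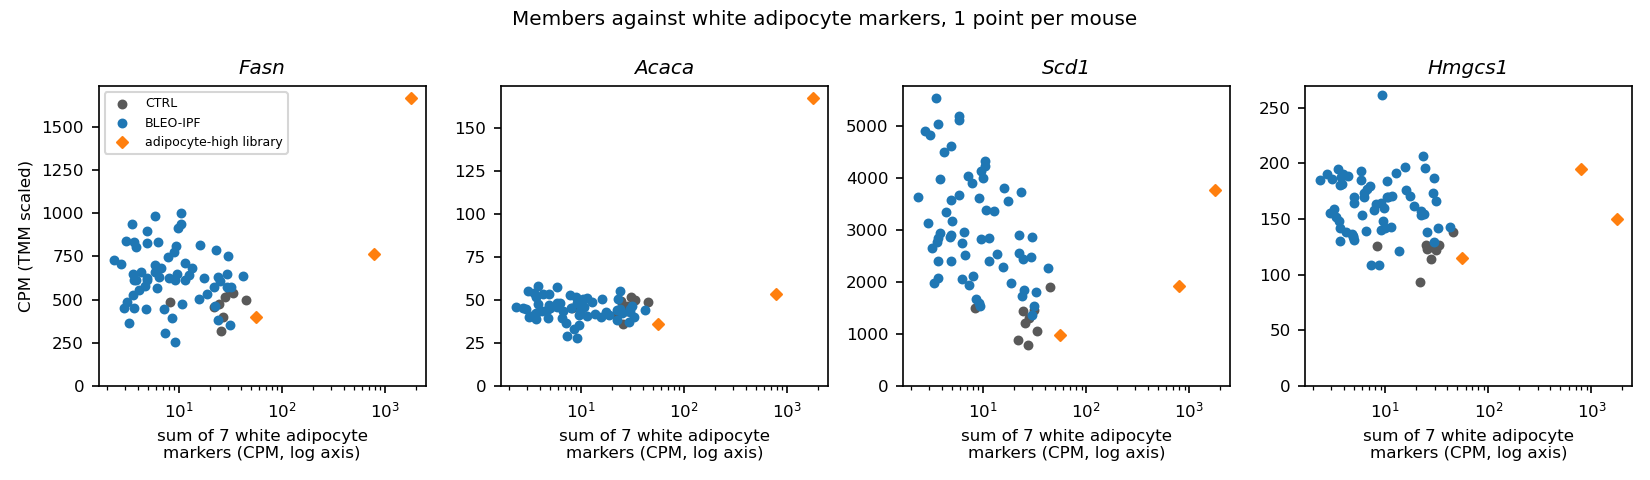
CPM of *Fasn*, *Acaca*, *Scd1* and *Hmgcs1* (vertical axes, linear from 0) against the summed CPM of 7 white adipocyte markers (horizontal log axis), with 1 point per mouse, CTRL in grey, BLEO-IPF in blue and the 3 adipocyte-high libraries as orange diamonds. The library at 1775 CPM of markers stands above all others for *Fasn* and *Acaca*, while it lies within the range of the other mice for *Scd1* and *Hmgcs1*.

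Whether the members varied together between mice of the same group was tested with log2 CPM centred on the group means, over 75 mice and 28 pairs of genes, by permutation of mice within groups (100000 resamples, two-sided). All 28 correlations were positive and 24 passed after Benjamini-Hochberg adjustment over the 28 pairs. All values of a mouse share 1 library and its scaling. Pairs of other genes were not tested in this way, so the share that would pass among all genes is not known. Among the 4 cholesterol members, Pearson's r was 0.64 to 0.79 and every pair had the smallest p that the permutations can give (1e-05, adjusted p = 2.8e-05). *Hmgcs1* and *Sqle* were closest, with r = 0.79 and Spearman's rho = 0.77, and r was 0.76 without the 2 mice farthest from the median of *Hmgcs1*. Within the 7 groups taken singly, r of this pair was 0.59 to 0.91.

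Pairs among the fatty acid members were looser. *Fasn* and *Acaca* had r = 0.71 and rho = 0.61 (permutation p = 1e-05, adjusted p = 2.8e-05), and r was 0.61 without the 2 farthest mice and 0.65 without the adipocyte-high libraries. *Fasn* and *Scd1* had r = 0.58 and rho = 0.58 (permutation p = 1e-05, adjusted p = 2.8e-05), although in single groups r went from -0.31 to 0.88. *Scd1* and *Srebf1* had r = 0.20 and rho = 0.20 and did not pass (adjusted p = 0.122). Across the 16 pairs of 1 fatty acid and 1 cholesterol member, r was 0.03 for *Scd1* and *Lss* (adjusted p = 0.81) to 0.51 for *Acaca* and *Idi1* (adjusted p = 2.8e-05). Without the adipocyte-high libraries, *Acaca* and *Srebf1* went from r = 0.45 (adjusted p = 0.0027) to 0.23 (adjusted p = 0.0872), and 21 instead of 24 pairs passed.

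**Figure D5:**
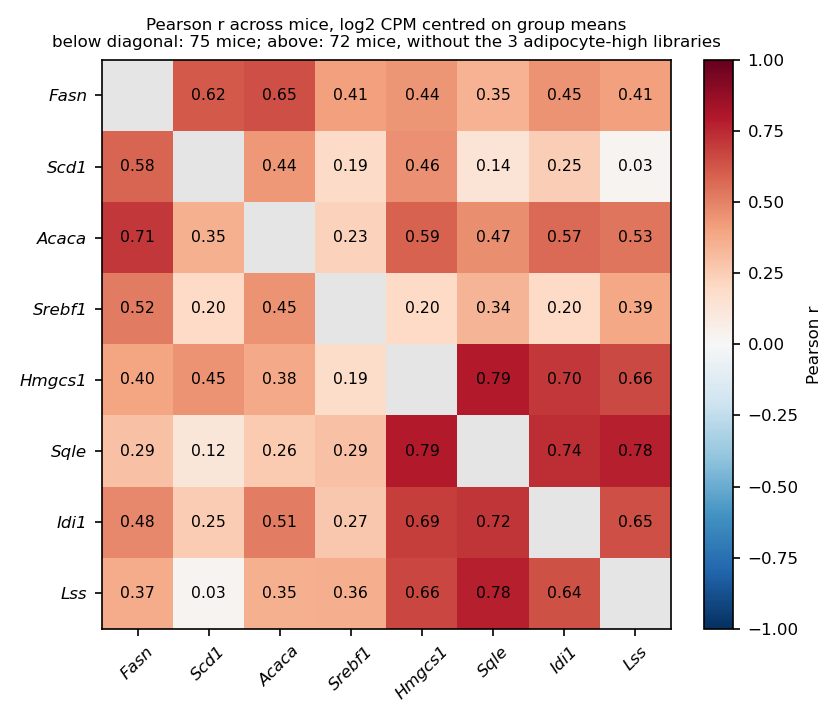
Pearson's r between the 8 genes across mice, for log2 CPM centred on the group means, with all 75 mice below the diagonal and 72 mice, without the adipocyte-high libraries, above it. The 4 cholesterol genes form a block with r of 0.64 to 0.79, and the lowest value is 0.03, for *Scd1* and *Lss*.

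The tested genes most like each member, by the same centred Pearson's r over 75 mice, are given as a description. *Msmo1*, a sterol methyl oxidase of the cholesterol pathway, came first for *Hmgcs1* (0.85), *Sqle* (0.82) and *Idi1* (0.72). *Hmgcs1* and *Sqle* were next to each other (0.79), and *Sqle* was also among the nearest genes of *Idi1* (0.72) and *Lss* (0.78). For *Scd1* they were *Lpcat1* (0.77), which makes the main surfactant lipid, *Soat1* (0.75), which esterifies cholesterol, and *Vnn1* (0.73). For *Fasn* they were *Pcx* (0.86), *Acly* (0.78) and *Ogdh* (0.76), and without the adipocyte-high libraries *Ptprf* (0.89), *Lrp2* (0.85) and *Abca3* (0.83), the last of which encodes the lipid transporter of lamellar bodies. For *Acaca*, *Pdha1* (0.74), *Pde4dip* (0.72) and *Crat* (0.71) came first, and their r fell to 0.35, 0.41 and 0.46 without these libraries. For *Srebf1*, *Aacs* (0.68), *Akt2* (0.68) and *Slc25a1* (0.66) came first, with r of 0.59, 0.59 and 0.56 without them.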

How the data were processed

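Lung RNA of 75 mice was measured by RNA sequencing. The authors selected polyadenylated RNA, made directional libraries, sequenced single-end reads, aligned them to GRCm38 (Ensembl 96 gene models) in STAR 2.7.0f and deposited raw counts per gene. The counting program and its strand setting are not given in the sources used here. All 75 columns were mapped to a mouse by the labels. Nothing states a batch, and each label is 1 mouse.

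From the counts, log2FC were fitted in R 4.3.3 with edgeR 4.0.16 (filterByExpr, TMM factors, quasi-likelihood F test, 1 mean per group, threshold 0.05 after adjustment over 16221 genes). Total counts of 9240291 to 14665247 set the precision. DESeq2 1.42.0, other scalings, no filter, only the groups compared, a replicate block, a log2FC of at least 0.5 and left-out libraries were tried as alternatives, and the fit was tested on simulated data. The log2 CPM used a prior count of 2. Copies were searched among transcripts of the annotation. Libraries above 5 times the median sum of white adipocyte markers, 46.2 CPM, were called adipocyte-high. Figures were drawn with matplotlib 3.10.9 in Python 3.11.15.

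The members, gene lists and tests were chosen with earlier results of these data known. Named were the 8 members on all days, in each pathway list the 2 largest increases and 2 largest decreases among the genes called on the day with most calls, and the 3 genes most correlated with each member. Other named genes were picked after their values were seen, as were the refits without day 7 mouse 5 and day 14 mouse 5 and the correlations without adipocyte-high libraries. Some genes of these lists are counted but not reported here by name.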

Additional observations from a re-analysis of the deposited data

Results flagged for a closer look

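In groups of 7 to 10 mice, 27 sets of values were searched for a mouse whose gap to its neighbour was large for the range of its group, and 4 were found, where chance flags about 1 in 20 groups. Of these, 3 were of BLEO-IPF day 7 mouse 5, which had 261 CPM of *Hmgcs1* (next mouse 197 CPM), 138 CPM of *Sqle* (next mouse 98.6 CPM) and 85.6 CPM of *Lss* (next mouse 59.6 CPM). The fourth was the white adipocyte marker sum of day 7 mouse 8, 786 CPM, with the next mouse at 29.9 CPM. No cause was tested.

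The effect against CTRL differed between days, by the test of the difference itself. From day 7 to day 14, the log2FC was -0.31 for *Hmgcs1*, -0.60 for *Sqle*, -0.68 for *Idi1* and -0.47 for *Lss*, and these 4 calls were kept under each refit, including without day 7 mouse 5. From day 14 to day 42, it was 0.48 for *Fasn* and 0.52 for *Scd1*, and both calls were lost in some refits.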

How the results depend on the processing

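Of 576 refitted log2FC values of the members, 535 kept their direction and their side of the threshold, 11 passed only in the alternative, 7 were lost and 23 changed sign, and of 180 values of named pathway genes 168 were kept and 12 were lost. All values that changed sign belonged to uncalled differences. *Scd1* from day 7 to 14 was -0.029 with library size, -0.026 with upper quartile factors, -0.0015 with only the groups compared, -0.034 without adipocyte-high libraries and -0.14 to -0.055 with 1 mouse left out. *Acaca* was 0.0094 on day 7 with library size, and -0.017, -0.060 and -0.019 on days 21, 28 and 35 without adipocyte-high libraries. *Fasn* and *Idi1* on day 14 were -0.047 to 0.10 and -0.022 to 0.041 with 1 mouse left out, and *Srebf1* on day 28 was 0.0086 with library size. *Idi1* on days 21 and 28 was -0.0036 and -0.0052 without adipocyte-high libraries, and *Lss* on day 14 was -0.0039 with the replicate block. *Lss* on day 28 was -0.0075 with upper quartile factors, -0.0017 without a filter, -0.0040 with only the groups compared, -0.038 with the replicate block, -0.029 without adipocyte-high libraries, -0.0026 with DESeq2 and -0.0097 to 0.0018 with 1 mouse left out. The cause was not tested.

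Counts moved most with an absolute log2FC of at least 0.5. Members called then numbered 1 on day 14, 2 on days 21 and 35, 2 from day 7 to 14 and 1 from day 14 to 42. Other cholesterol genes numbered 3, 3, 2, 2 and 2 on days 14 to 42, and other fatty acid genes 3, 3, 4, 3 and 3 on days 7 to 35. From day 14 to 42, 2 members were called, against 0 without a filter, 0 with only the groups compared and 1 with the replicate block. From day 14 to 21, 0 members were called, against 2 without day 14 mouse 5. With only the groups compared, 12 cholesterol and 11 fatty acid genes passed on day 42 in place of 7 and 4, and without a filter 5 in place of 8 fatty acid genes on day 35. The shares of all genes under these settings are not given here, so these counts describe the lists alone. Same-numbered mice of different groups did not vary together (median r 0.01 over 204 pairs, -0.54 to 0.57, and 7 of 75 mice closest to their own number), so the replicate block pairs nothing known. *Idi1*, *Scd4*, *Mlxipl* and *Ppara* are limited by low counts.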

Other observations

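Day 28 mouse 10, the library highest in fat markers, was also highest of its day for muscle. The sum of 6 skeletal muscle markers was 1822 CPM there and 15.2 CPM or less in the other 11 mice, and that of 5 cardiac muscle markers was 2035 CPM and 680.2 CPM or less. CTRL mouse 9 had the highest sum of 5 thymus markers among CTRL mice, 32.7 CPM.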
